A study of Mus musculus with 10 samples.

Results

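The gene-level table of a mouse spinal cord injury series holds 23332 entries, and 7317 of them carry no gene symbol in the platform annotation given here. Entries without a symbol were selected on their own signal: the brightest of the 5 arrays had to reach 3.79, a log2 signal that exceeds 40% of the values in that table. This left 3273 unnamed entries, which are described against the 11370 of 14996 clusters with 1 symbol that passed the same filter. Because they were chosen by their highest signal, signals are given as a description. The values closest to the threshold were highest signals of 3.79251, 3.79251 and 3.79393 inside it and 3.79191, 3.79157 and 3.79138 outside it.

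RNA of the T10 segment of the spinal cord came from wild-type ICR mice, an outbred stock, labelled as 4 weeks old. The 4 injured groups were collected after 1 day, after 3 days, after 1 week and after 3 weeks, and the control had a sham operation with no time given. The design text describes 15 mice, 3 per group, whose RNA was mixed by equal mass, so each of the 5 groups is 1 pool on 1 array. There is no replicate, no test could be run, and a difference of at least 2-fold (1 on the log2 scale) is a rule of size. If the stated age is that at surgery, age and time after injury cannot be told apart. In RNA from whole tissue, fewer cells of a type and less RNA per cell cannot be told apart either.

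Whole-transcript exon arrays read a gene through many probe sets, each a few probes within an exon, and a transcript cluster joins the probe sets of a locus into a single value. A cluster can lack a symbol because the annotation knew only a predicted transcript there. Arrays of this kind also carry control probe sets that lie in exons and introns of genes active in most cells, and these can be listed beside the clusters under their own numbers. In an injured cord, neurons and oligodendrocytes are lost while macrophages, fibroblasts and reactive glia fill the lesion, whereas genes of general cell maintenance are active in the cells that leave and in those that enter.

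Most of the unnamed entries were not transcript clusters. Of the 7317, 6577 had the same number as a probe set of the exon-level table, and no entry with a symbol did. All 32885 values of these entries were the same in both tables, with a largest gap of 0, so the gene-level and exon-level columns of a group are readings of the same array. The label of a transcript cluster therefore holds for 740 of the 7317. The exon-level annotation gave a symbol to 1214 of the 6577 probe sets, and the symbols were few: 100 labels, 98 of them a single gene. The 3273 entries that passed the filter fell into 1133 probe sets with an exon-level symbol (here named probe sets, 34.6%), 1690 probe sets with no symbol in either annotation (unnamed probe sets, 51.6%) and 450 clusters found in the gene-level table alone (unnamed clusters, 13.7%). The filter kept 93.3% of the named probe sets, 31.5% of the unnamed probe sets and 60.8% of the unnamed clusters.

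The named probe sets read a small set of genes. Leaving out 10 whose label joined several genes, 1123 probe sets belonged to 95 genes, with 1 to 52 probe sets and a median of 9 per gene. They include subunits of the proteasome (Psma1, Psmb5, Psmc5), the coatomer coat of Golgi vesicles (Copa, Copg1), cytosolic and mitochondrial ribosomes (Rpl23, Rps27, Mrpl52) and the anaphase-promoting complex (Anapc1, Anapc2). Probe sets of 1 gene share its transcript and are not replicates of a condition.

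The classes differed in signal before the filter. The median of the mean log2 signal over the 5 arrays was 7.61 in the 1214 named probe sets, 2.48 in the 5363 unnamed probe sets and 4.23 in the 740 unnamed clusters, against 5.38 in the clusters with 1 symbol. After the filter it was 7.74, 4.17 and 5.97, against 6.09. All 5 arrays lay at or above the filter level for 96.0% of the named probe sets, 43.5% of the unnamed probe sets and 83.6% of the unnamed clusters, against 89.8% of the clusters with 1 symbol. A single array carried the entry over the level for 350 of the 1690 unnamed probe sets, and such an entry had to differ between arrays.

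The classes also differed in a property the filter did not use. Exactly the same signal stood on 2 or more of the 5 arrays for 144 of the 450 unnamed clusters (32.0%), close to the 34.4% of clusters with 1 symbol, and for 1.15% of named and 3.14% of unnamed probe sets. At 3 weeks the difference from sham was exactly 0 for 4.67% of unnamed clusters and 6.91% of clusters with 1 symbol, and the medians of 0.00 given below for that time are exact values of this kind. By this measure too the unnamed clusters resembled other clusters and the probe set entries did not.

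**Figure D1:**
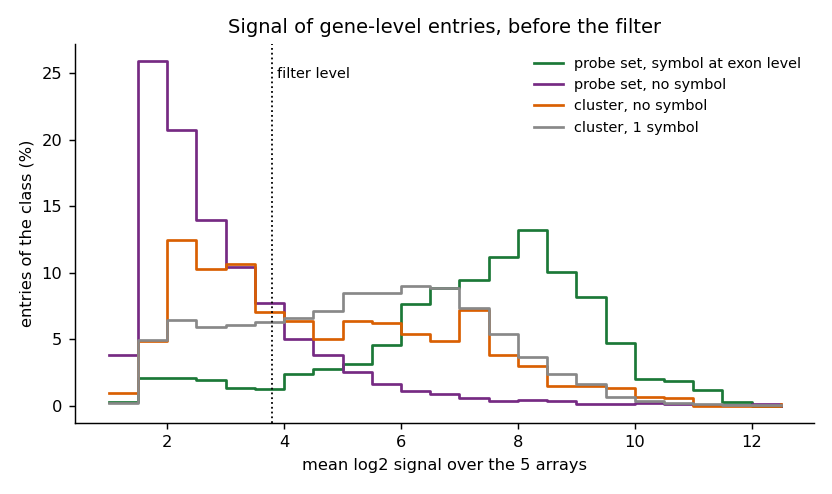
Mean log2 signal over the 5 arrays (x axis) of the gene-level entries before the filter, as the percent of each class (y axis), with the filter level of 3.79 as a dotted line. Unnamed probe sets pile up below the line (median 2.48), named probe sets lie far above it (median 7.61) and unnamed clusters lie between them (median 4.23).

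At 1 day after injury, 169 of the 3273 unnamed entries were at least 2-fold higher and 252 at least 2-fold lower than in sham, or 5.16% and 7.70%. Over all 15191 gene-level entries that passed the filter the shares were 4.12% and 4.97%. At 3 days 242 were higher and 283 lower (7.39% and 8.65%, against 6.31% and 9.45% of all entries). At 1 week, the time with the most differences, 355 were higher and 377 lower (10.8% and 11.5%, against 11.2% and 13.4% of all entries). At 3 weeks 189 were higher and 87 lower (5.77% and 2.66%, against 7.93% and 3.29% of all entries). The shares of the unnamed entries thus lay above those of all entries in both directions at 1 day and below them in both directions at 1 week and 3 weeks. Higher entries made up 40.1%, 46.1%, 48.5% and 68.5% of the calls at the 4 times in order. Quantile normalization of the arrays put these shares at 50.8%, 53.4%, 50.1% and 54.8%. Centring each array on its median put them at 49.9%, 48.0%, 48.9% and 46.0%, and centring on the named probe sets at 55.8%, 62.4%, 54.4% and 74.0%. Which direction was the more frequent thus depended on the scaling at all 4 times.

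The typical unnamed entry differed little from sham. The median log2 difference was -0.12 after 1 day, -0.09 after 3 days, -0.09 after 1 week and 0.02 after 3 weeks, against -0.15, -0.12, -0.06 and 0.00 in clusters with 1 symbol. The middle 80% of unnamed entries ran from -1.08 to 1.05 at 1 week, against -1.28 to 1.13 in clusters with 1 symbol. At 1 day the same spread was wider in unnamed entries, from -0.88 to 0.63, against -0.76 to 0.39.

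The 3 classes differed in their shares of calls. At 1 day 14 named probe sets were higher and 56 lower (1.24% and 4.94%), against 145 higher and 175 lower unnamed probe sets (8.58% and 10.4%). In 128 of these 145 the sham signal was below the filter level, and in 121 of the 175 the 1 day signal was. Of the unnamed clusters 10 were higher and 21 lower (2.22% and 4.67%), against 3.76% and 4.19% of the clusters with 1 symbol. At 1 week the named probe sets had 87 higher and 86 lower (7.68% and 7.59%), the unnamed probe sets 219 and 222 (13.0% and 13.1%) and the unnamed clusters 49 and 69 (10.9% and 15.3%), against 11.2% and 14.0% of the clusters with 1 symbol. Many calls of named probe sets came from the same gene: 15 of the 87 were of Psap and 11 each of Dhrs1 and Golm1, and 12 of the 86 were of Hdac5. At 3 weeks 2.47% of named probe sets were higher and 1.24% lower, against 8.22% and 5.11% of unnamed clusters and 8.47% and 3.44% of clusters with 1 symbol. The order of the classes depended on the filter. With both arrays at the filter level, 4.97% of unnamed probe sets were higher and 7.86% lower at 1 week. The shares were then 7.05% and 7.32% of named probe sets and 10.1% and 15.7% of unnamed clusters. Clusters with 1 symbol gave 9.65% and 13.8%.

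**Figure D2:**
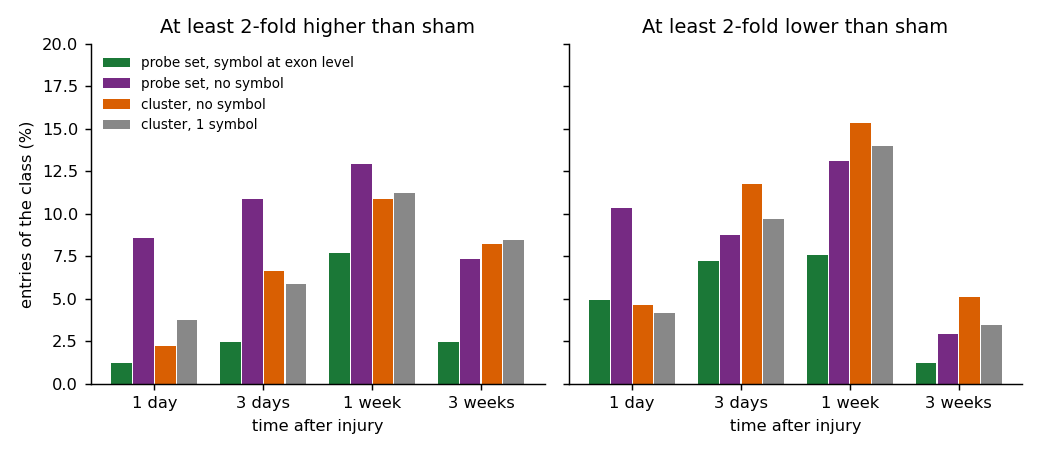
Percent of the entries of each class (y axis) at least 2-fold higher (left) or lower (right) than sham at the 4 times after injury (x axis), 1 array per time. Named probe sets have the shortest bars among the higher calls at every time, 7.68% at 1 week, and unnamed probe sets have the tallest bars at 1 day, 8.58% higher and 10.4% lower. Of those higher calls of unnamed probe sets, 128 of 145 had a sham signal below the filter level.

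The shares differed by signal level, in probe sets and clusters in different ways. Entries with a mean below the filter level passed only through an array where they are high, so a high share of calls among dim entries is partly set by the filter. Among unnamed probe sets with a mean signal below 4, 26.3% differed at least 2-fold at 1 day and 35.0% at 1 week. Among those at 8 or above, the shares were 1.23% and 3.70% of 81. Named probe sets at 8 or above differed in 1.20% at 1 day and 11.8% at 1 week (n = 501), against 5.93% and 30.8% of the clusters with 1 symbol at that level. A cluster summarises many probe sets, so exon-level probe sets with 1 symbol that were not among the unnamed entries were set beside them: at 8 or above 6.48% of these differed at 1 day and 28.2% at 1 week (n = 28941). At 1 week the shares were larger in bright than in dim clusters. Unnamed clusters were called in 21.2%, 16.9%, 35.0% and 34.4% at 1 week, in order of the mean signal ranges below 4, 4 to 6, 6 to 8 and 8 or above. Clusters with 1 symbol gave 21.0%, 21.7%, 27.9% and 30.8% in the same ranges. At 1 day the unnamed clusters had 5.77%, 4.52%, 10.8% and 4.69%, against 7.17%, 8.12%, 8.52% and 5.93%.

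**Figure D3:**
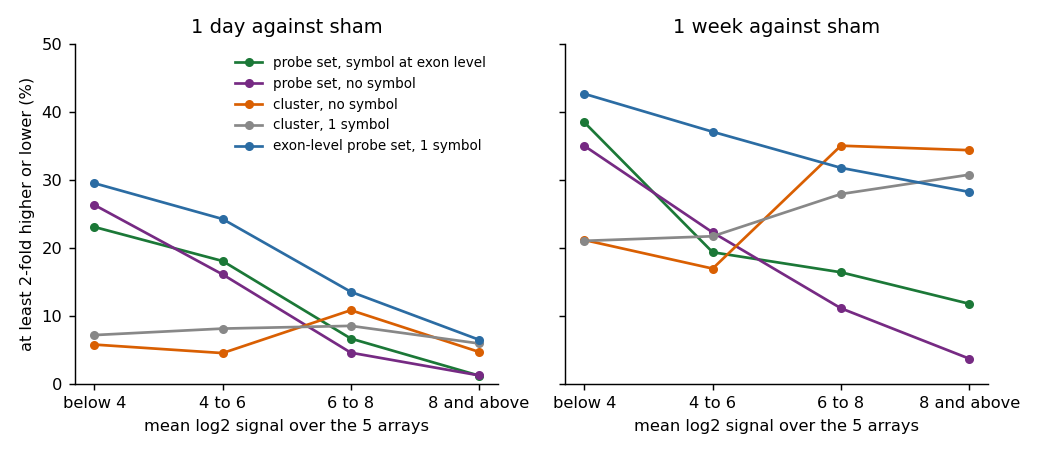
Percent of entries at least 2-fold higher or lower than sham (y axis) in 4 ranges of mean log2 signal (x axis), at 1 day (left) and 1 week (right), for the 3 unnamed classes, clusters with 1 symbol and exon-level probe sets with 1 symbol. In the range of 8 and above at 1 week, named probe sets stand at 11.8% and unnamed probe sets at 3.70%, below the 34.4% of unnamed clusters and the 30.8% of clusters with 1 symbol.

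Many of the calls rest on a signal under the filter level, as a filter on the highest array allows. Of the unnamed entries called higher at 1 day, 134 of 169 (79.3%) had a sham signal below it, and at 1 week 195 of 355 (54.9%) did. Among clusters with 1 symbol, 107 of 428 and 272 of 1276 did. With both arrays at or above the level, 35 unnamed entries were higher and 120 lower at 1 day (1.47% and 5.03%, against 2.78% and 4.20% of all entries). At 3 days 73 were higher and 162 lower (3.04% and 6.75%, against 4.43% and 9.32%). At 1 week 160 were higher and 210 lower (6.78% and 8.90%, against 9.18% and 12.9%), and at 3 weeks 82 and 42 (3.27% and 1.68%, against 6.61% and 3.18%). The excess of higher calls at 1 day was thus not there once both signals had to reach the level. The 4044 unnamed entries that the filter left out also held such differences. At 1 week 195 of them were at least 2-fold higher and 91 lower (4.82% and 2.25%), though none reached the filter level on any array. Clusters with 1 symbol had 1276 higher and 1593 lower at 1 week with the filter. Adding the 3626 that it left out gave 1313 and 1612. Those dim clusters thus added few calls, and the shares of the 4044 are not a general scale for dim signals.

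For the genes behind the named probe sets, the median over a gene's probe sets was taken where at least 3 passed the filter, which left 83 genes with 1107 probe sets. None was past 2-fold at 1 day. At 3 days 2 were higher and 0 lower, at 1 week 8 were higher and 2 lower, and at 3 weeks 2 were higher and 0 lower. Medians formed in the same way over 13418 other genes of the exon-level table were at least 2-fold higher for 3.88% and lower for 4.62% at 1 day. They were 6.74% and 11.1% at 3 days and then 12.5% and 14.4% at 1 week, while at 3 weeks the shares were 9.12% and 3.29%. For the 83 genes the shares were 2.41% higher at 3 days, 9.64% higher and 2.41% lower at 1 week, and 2.41% higher at 3 weeks. Genes whose median lay within 0.5 of sham on the log2 scale were 70 of the 83 after 1 day, 61 after 3 days, 44 after 1 week and 67 after 3 weeks. These shares were 84.3%, 73.5%, 53.0% and 80.7%, against 67.1%, 57.1%, 48.4% and 68.3% of the other genes. The other genes were not matched to the 83 for signal. Among exon-level probe sets outside the unnamed entries, 29.5% were called at 1 day at a mean signal below 4, against 6.48% at 8 or above. The part of signal in the shares of genes was not tested. The SD over the probe sets of a gene had a median of 0.34 at 1 week. It describes probes on 1 pair of arrays and not mice.

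The 10 genes past 2-fold at 1 week are named here after their values were seen. Golm1, which encodes a membrane protein of the Golgi, had the largest difference. The median log2 signal of its 12 probe sets was 5.36 in sham, 5.64 after 1 day, 6.99 after 3 days, 7.60 after 1 week and 6.67 after 3 weeks. Its log2 difference from sham was 2.08 ± 0.74 at 1 week (median ± SD over 12 probe sets of 1 pair of arrays), and all 12 probe sets were above 0, 11 of them at least 2-fold.

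Psap, the precursor of the saposins that help lysosomal enzymes degrade sphingolipids, was the brightest of the 10 in sham. Its 17 probe sets had medians of 10.34 in sham, 10.15 after 1 day, 10.68 after 3 days, 11.88 after 1 week and 11.28 after 3 weeks. All 17 lay below sham at 1 day (-0.21 ± 0.15) and all 17 above it at 1 week (1.54 ± 0.31), 15 of them at least 2-fold. The difference at 1 day is of the size of the median over all gene-level entries, -0.14, while that at 1 week is far from it.

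Dhrs1, a dehydrogenase of the short-chain family, lay above sham at all 4 times. The median signal of its 13 probe sets was 8.47 in sham, 9.30 after 1 day, 9.88 after 3 days, 9.83 after 1 week and 9.78 after 3 weeks. Its differences of 0.86 ± 0.25, 1.39 ± 0.28, 1.26 ± 0.30 and 1.31 ± 0.27 formed a plateau from 3 days, while Golm1 and Psap had their highest value at 1 week.

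The other genes higher at 1 week were Rps27 (1.15 ± 0.19, n = 5 probe sets) and Rpl23 (1.02 ± 0.66, n = 5), proteins of the cytosolic ribosome, Rragc (1.10 ± 0.29, n = 12), a Rag GTPase that signals amino acid supply at the lysosome, Tmem165 (1.10 ± 0.71, n = 11), a Golgi membrane protein, and Ssr3 (1.05 ± 0.27, n = 9), a subunit of the translocon-associated complex of the endoplasmic reticulum. For Rragc and Ssr3 every probe set was above 0, while for Tmem165 9 of 11 and for Rpl23 4 of 5 were. Ribosomal protein genes have near-identical pseudogenes, and which copies these probes read was not tested. Rpl23 was under 2-fold without the filter (0.81) and after quantile normalization of the arrays (0.79).

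The 2 genes lower at 1 week were Ddx24, a DEAD-box RNA helicase, and Psmc5, an ATPase of the proteasome's regulatory particle. Ddx24 had a median signal of 6.89 at 1 week, against 8.12 in sham, a difference of -1.23 ± 0.27 over 7 probe sets, all below 0. Psmc5 had 6.88 at 1 week, against 8.29 in sham, and its 11 probe sets, all below 0, gave -1.10 ± 0.51. Quantile normalization put Psmc5 just under 2-fold, at -0.98. Both were closer to sham at 3 weeks, with -0.33 ± 0.19 and -0.46 ± 0.31.

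Genes were grouped by cellular role with these results known, and the counts per role are read against the 12.5% higher and 14.4% lower among the 13418 other genes at 1 week. Of the 14 secretory pathway genes, 3 were higher (Golm1, Tmem165 and Ssr3) and 0 lower at 1 week, with a median of 0.27 and a range from -0.76 for Golga7 to 2.08 for Golm1. Over all 83 genes the median was -0.06. Within that pathway the coatomer subunits stood apart, Copa at 0.33 over 36 probe sets and Copg1 at -0.65 over 28. Sar1a, the GTPase of the COPII coat, was at 0.86, while the exchange factors for Arf GTPases were at -0.71 (Gbf1) and -0.44 (Arfgef1).

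Of the 12 proteasome and ubiquitin genes, 0 were higher and 1 (Psmc5) lower, with a median of -0.17. The proteasome core subunits Psma1 and Psmb5 were at 0.70 and -0.08. The 6 genes of the lysosome and nutrient sensing had 2 higher and 0 lower and a median of 0.18. The proton pump subunit Atp6v0d1 (0.17) and the late endosomal GTPase Rab7 (0.15) were far from the size of Psap. The 7 ribosome and translation genes had 2 higher and 0 lower with a median of 0.02, and the initiation factor of mitochondria, Mtif2, was at -0.60. The 10 genes of RNA synthesis and processing had 0 higher and 1 lower (Ddx24), with a median of -0.32. Of 5 transcriptional repressors and chromatin genes none passed 2-fold, and their median of -0.26 ran from -0.92 (Sap30l) to 0.00 (Cic), with the histone deacetylase Hdac5 at -0.86 over 32 probe sets. Psenen, a subunit of gamma-secretase, was at 0.15. The 28 genes outside these groups had 1 higher (Dhrs1) and 0 lower, with a median of -0.12.

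Most of these genes also have a cluster with their symbol, built on the same arrays and possibly from some of the same probes. For 69 of the 83 genes that cluster passed the filter. Across these 69 genes the probe set medians and the clusters' differences had a Pearson correlation of 0.92 after 1 day, 0.92 after 3 days, 0.96 after 1 week and 0.96 after 3 weeks, given as a description because both share the arrays and genes are not replicates. The median absolute gap between the readings was 0.08 at 1 week. Psap was at 1.41 and Dhrs1 at 1.25 by their clusters at 1 week, against 1.54 and 1.26 by their probe sets. Rpl23 (0.73) and Ddx24 (-0.97) were under 2-fold by their clusters, against 1.02 and -1.23 by their probe sets. The Rpl23 cluster was much dimmer, at 5.67 in sham against a median of 9.67 over the probe sets. At 3 days that cluster was at -0.14, against 0.75 by the probe sets. Rnf220 (-1.11) and Golga7 (-1.05) were past 2-fold by their clusters, against -0.70 and -0.76. By clusters 5 of the 69 genes were at least 2-fold higher and 4 lower at 1 week, so which genes passed depended on the reading. The largest gap at 1 week was that of Gps1, a subunit of the COP9 signalosome, at -0.32 over 14 probe sets and -1.17 by its cluster. The Gps1 cluster was also much dimmer, at 5.72 in sham and 4.54 at 1 week, against medians of 8.55 and 8.35 over the probe sets. Whether the cluster and the probe sets read the same transcript was not tested.

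**Figure D4:**
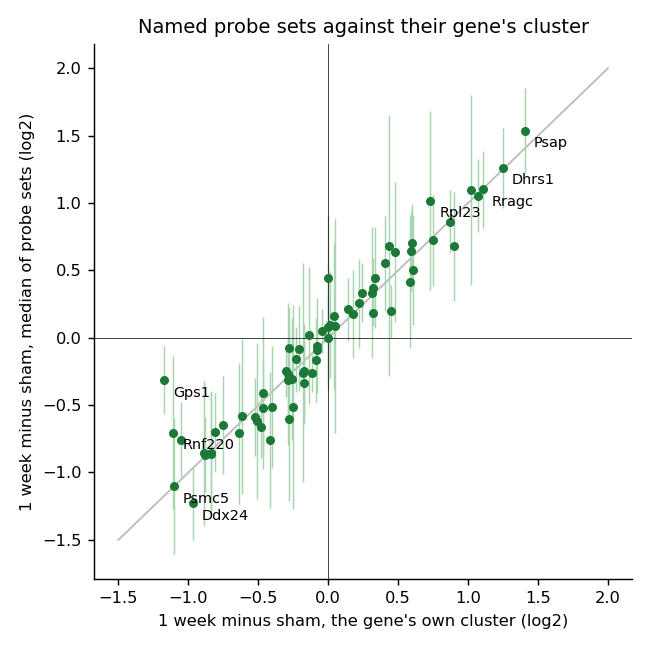
Log2 difference of 1 week from sham for 69 genes, by the gene's own cluster (x axis) and as the median over its named probe sets (y axis, bars are the SD over probe sets of 1 pair of arrays), with the line of equality. The points lie along the line (Pearson 0.96), and Gps1 lies off it at -1.17 and -0.32.

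For 15 of the 95 genes the gene-level table has no cluster with their symbol alone, and 108 unnamed entries read them. A cluster shared with another symbol exists for 7, Golm1 among them. The other 8 genes, Arfgef1, Cox18, Pfdn5, Psmb5, Rab7, Rps27, Sap30l and Tomm5, have no cluster with their symbol, and 62 of these entries read them. Whether an unnamed cluster also reads 1 of them was not tested. At 1 week the prefoldin subunit Pfdn5 was at 0.55, Cox18, which helps insert a cytochrome oxidase subunit, at -0.26, and the mitochondrial import subunit Tomm5 at -0.03.

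Single probe sets could depart from their gene. At 1 week 45 of the 1107 probe sets (4.07%) differed by at least 1 from the median of the gene's other probe sets, in 30 genes, and 25 of the 45 had a mean signal below 6, against 168 of the 1107. No such share is given here for probe sets of other genes, so whether 4.07% is high for these arrays cannot be read from it. The largest difference of any named probe set was that of probe set 4897335 of Derl1, a channel protein of endoplasmic reticulum quality control. It read 1.64 in sham, 1.59 after 1 day, 3.94 after 3 days, 5.46 after 1 week and 2.61 after 3 weeks. Its difference of 3.82 at 1 week compares with 0.67 for the other 11 probe sets of the gene, and its sham array lay under the filter.

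The next 2 were probe sets of Golm1. Probe set 4831367 read 8.12 at 1 week, against 4.52 in sham, and probe set 5367902 was 2.84 above sham at 1 week, with 1.89 for the other 11 in both cases, so they had the direction of their gene. The largest negative differences were in probe sets with a low signal after injury. In Fryl, the mammalian relative of the fly gene furry, probe set 4387115 read 2.93 at 1 day, against 5.90 in sham (-2.97, the other 16 at -0.85). In the ubiquitin ligase gene Itch, probe set 4921438 read 3.09 at 3 days, against 5.86 in sham (-2.78, the other 31 at -0.60). In Rnf220, another ubiquitin ligase gene, probe set 4742752 read 3.18 at 3 days, against 5.71 in sham (-2.53, the other 17 at -0.74). All 3 later signals lay below the filter level, and all 3 differences were larger than the median of the gene's other probe sets.

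The 450 unnamed clusters held the largest positive difference of all unnamed entries at every time. At 1 week 22 were at least 4-fold higher and 24 at least 4-fold lower (4.89% and 5.33%), against 4.54% and 3.34% of all gene-level entries. The shares were 4.85% and 3.82% of clusters with 1 symbol and 0.88% and 0.71% of named probe sets. The sham array gave the highest value, alone or tied, for 39.6% of the unnamed clusters and for 42.4% of clusters with 1 symbol. It did so for 33.5% of named and 21.5% of unnamed probe sets. Equal signals were common in clusters and rare in probe sets, so these shares cannot be compared between clusters and probe sets. None of the 450 unnamed clusters could be paired with a gene, and each value below rests on 1 array.

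Cluster 6783040 had the widest range of all unnamed entries. Its log2 signal was 2.40 in sham, 6.24 after 1 day, 8.46 after 3 days, 9.35 after 1 week and 6.70 after 3 weeks, so it was 6.95 above sham at 1 week, with a sham array under the filter. Cluster 6933072 was bright throughout, with 8.18 in sham, 11.01 after 1 day, 12.08 after 3 days, 12.34 after 1 week and 10.61 after 3 weeks. It was 17.9-fold higher at 1 week than in sham. Among entries with both signals at the level it was also 1 of the 2 with the largest positive difference at 1 day and at 3 days.

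Other clusters had their highest value at 1 day, at 1 week or at 3 weeks. Cluster 6942524 read 4.35 in sham, 8.62 after 1 day, 8.59 after 3 days, 7.01 after 1 week and 5.48 after 3 weeks, which is 19.2-fold higher at 1 day than in sham. Cluster 7018531 read 3.84 in sham and 7.75 at 1 week, its highest value, a difference of 3.92. Cluster 6890597 read 4.17 in sham, 7.91 at 1 week and 7.51 at 3 weeks, with differences of 3.74 and 3.33. Cluster 6856290 stood apart in time: it read 6.92 in sham, between 6.20 and 7.09 up to 1 week, and 10.33 at 3 weeks, 3.42 above sham.

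The largest negative differences with both signals at the level were those of clusters 6881771 and 6916089 at 1 week. Cluster 6881771 read 8.50 in sham, 7.70 after 1 day, 6.67 after 3 days, 5.14 after 1 week and 7.32 after 3 weeks, a difference of -3.36 at 1 week. Cluster 6916089 read 10.36 in sham, 9.83 after 1 day, 8.72 after 3 days, 7.03 after 1 week and 8.49 after 3 weeks, with -3.33 at 1 week and -1.86 at 3 weeks. Both had their lowest value at 1 week. The brightest unnamed cluster, 7014035, read 12.92 in sham and between 12.37 and 12.68 after injury.

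**Figure D5:**
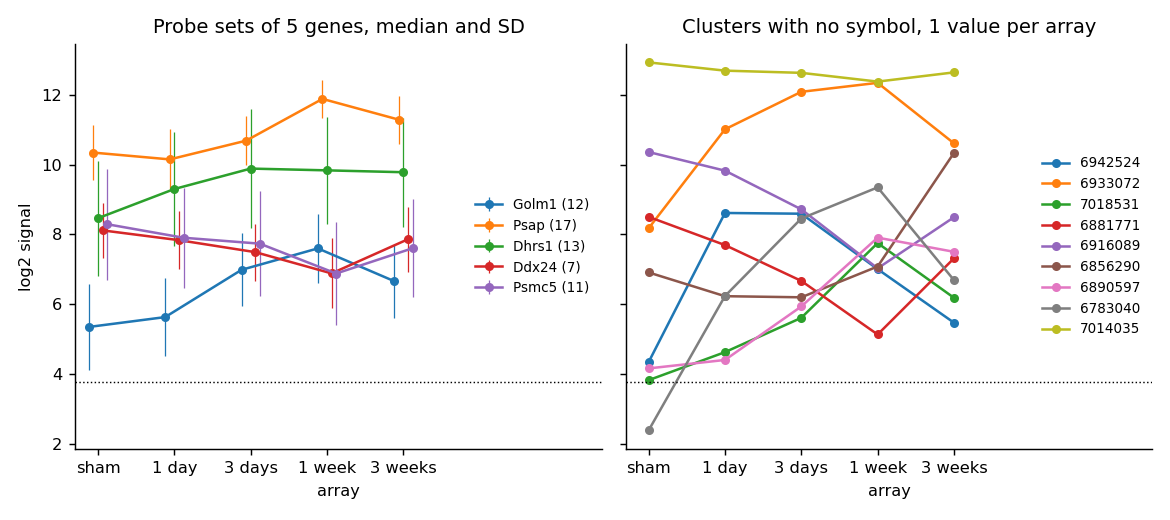
Log2 signal (y axis) on the 5 arrays (x axis), with the filter level as a dotted line. Left, the median and SD over the named probe sets of 5 genes, number of probe sets in brackets, with Golm1 between 5.36 and 7.60. Right, the unnamed clusters given in the text, 1 value per array, with cluster 6783040 between 2.40 and 9.35 and cluster 6856290 highest at 3 weeks (10.33).

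The filter on the highest array bears most on the 1690 unnamed probe sets, of which 66.6% reached the level in sham, so the counts of calls below it are a description only. Of those called higher at 1 week, 176 of 219 (80.4%) were under the filter level in sham, and of those called lower, 154 of 222 (69.4%) had a 1 week signal below it. Probe set 5394375 had the second widest range of all unnamed entries, with 1.78 in sham, 2.21 after 1 day, 4.53 after 3 days, 6.41 after 1 week and 1.73 after 3 weeks. Its value at 3 weeks was -0.05 from that of sham. Probe set 4556004 stayed above the level on all 5 arrays, and read 4.62 at 3 days, its lowest value, against 7.57 in sham, a difference of -2.94. Probe set 4824300 read 5.06 at 1 day, against 6.86 in sham, a difference of -1.80, and 4498594 read 3.94 at 3 days, against 6.76 in sham, a difference of -2.82. At 1 day 4498594 read 3.74, just below the level. The brightest, 4486224, read between 12.29 and 12.49 on all 5 arrays. Among entries with both signals at the level, probe set 4755727 of Fryl (-1.80 at 1 day) and probe set 4921438 of Itch (-1.62 at 3 weeks) were also among the 2 largest negative differences of their time.

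Marker genes of cell types also differed between these arrays. Of the 11 measured of 15 skeletal muscle markers, 10 were at least 2-fold higher at 1 day, against 4.12% of all gene-level entries, and their summed linear signal was 3693 after 1 day, 2033 after 3 days, 472 after 1 week and 408 after 3 weeks, against 371 in sham. Median log2 differences at 1 week were 4.50 for 12 macrophage and microglia genes, 4.05 for 10 fibroblast and meningeal genes, 2.40 for 7 cell cycle genes, -0.53 for 7 astrocyte genes, -1.55 for 11 oligodendrocyte genes and -2.32 for 13 neuronal genes. They were -0.02 for 6 endothelial genes and 0.01 for 2 Schwann cell genes, and 1 of 2 erythrocyte genes was at least 2-fold lower, against 13.4% of all entries. The part of these cells in the differences of the unnamed entries was not tested.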

How the data were processed

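The authors deposited 2 tables of log2 signals, 1 value per gene-level entry or exon-level probe set and array. The base is not named. Base 2 was taken, since 13.15, the highest value of either table, then stands for 9097 and with base e for 514577, beyond a scanner's range. GCOS software and the mm8 build appear among the submitters' processing notes. The handling of background, scaling and summary was not given in the sources used here. The number of arrays limits the precision.

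Values were used as deposited, with Python 3.11.15 and pandas 2.3.3, and the counting of calls was tested on simulated data. Entries were matched between tables by number. Symbols came from the 2 platform annotations. Exon-level symbols were brought up to date through RefSeq names of GRCm38.p6, which held all 98 single-gene labels and renamed 13. No coordinates or probe sequences were used. The members, gene groups and marker lists were chosen with earlier results of these data known. Entries were named by a rule: at each time the 2 largest positive and negative differences with sham and that array at or above the filter level, the 2 widest ranges, the 2 highest means, and the 3 largest positive and negative differences among named probe sets. Arrays were also centred or quantile normalized, and other filters tried.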

Additional observations from a re-analysis of the deposited data

How the results depend on the processing

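The median of unnamed entries minus that of clusters with 1 symbol was small, 0.03, 0.03, -0.03 and 0.02 at the 4 times, and its sign was not stable at the last 2. It was 0.02 at 1 week without a filter. At 3 weeks it was 0.08 after quantile normalization, 0.00 with the mean filter, -0.01 with the 60th percentile and -0.003 with both arrays at the level. Centring cannot change it. Counts of unnamed entries moved by over 1.5 times mainly with the filter, partly because it sets how many are tested. Without a filter (7317 entries) 304, 398 and 550 were higher at the first 3 times. As shares these were 4.15%, 5.44% and 7.52%, below the 5.16%, 7.39% and 10.8% with the filter. Clusters with 1 symbol gave 2.93%, 4.61% and 8.76% without a filter. With the mean signal in place of the highest (2622 entries), 74 were higher and 165 lower at 1 day (2.82% and 6.29%). There were 128 higher at 3 days (4.88%), 214 higher at 1 week (8.16%) and 57 lower at 3 weeks (2.17%). With the 60th percentile (1902 entries) the higher ones numbered 44, 88, 175 and 86 in order of time (2.31%, 4.63%, 9.20% and 4.52%). The lower ones numbered 118, 151, 205 and 38 (6.20%, 7.94%, 10.8% and 2.00%). With both arrays at the level the counts were 35, 73, 160 and 82 higher and 120, 162, 210 and 42 lower. Centring the arrays on their medians gave 155 lower at 3 weeks, when the median of all entries was -0.16 in place of 0.00. Quantile normalization put that median at -0.01, -0.01, -0.02 and -0.10 at the 4 times, in place of -0.14, -0.11, -0.06 and 0.00. Centring on the named probe sets, added after seeing the data, moved no count by over 1.5 times. Of the genes, Psmc5 came to -0.98 and Rpl23 to 0.79 at 1 week after quantile normalization. No paired analysis was possible because each group is 1 array. Leaving out a replicate was not possible either.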
